A study of Mus musculus with 8 samples.

Results

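The cathepsins and cystatin C were followed here as 10 genes chosen by name: the cathepsins Ctsa, Ctsb, Ctsc, Ctsd, Ctsh, Ctsk, Ctsl, Ctss and Ctsz, which are proteases of endosomes and lysosomes, and Cst3, which encodes cystatin C, an inhibitor of the cysteine cathepsins. All 10 were among the 11743 genes with values in both replicates of the ribosome profiling experiment, and all 10 were among the 10321 genes tested. The study asked how loss of the m6A methyltransferase Mettl3 affects translation in dendritic cells (DC). Bone marrow of C57BL/6 mice aged 6 weeks was cultured with GM-CSF (10 ng/ml) and IL-4 (1 ng/ml), CD11c+ cells were selected on beads on day 5, and LPS (100 ng/ml) was given for 24 h to obtain mature DC (maDC) in both genotypes. Mettl3KO mice carried Mettl3 fl/fl alleles and CD11c-Cre, which removes exons 2 to 4 of Mettl3 in cells that express the CD11c promoter, and Mettl3WT mice were their littermates. Cells that had not yet expressed Cre, or never did, keep the gene. After cycloheximide arrest, each lysate was split into input mRNA and ribosome-protected fragments (RPF) from the 80S monosome fraction, and both were sequenced. Input and RPF of both genotypes thus make 4 groups of 2 libraries, 8 in all, and cells came from 6 pairs of littermates. How these pairs were divided between the replicates is not given, so the spread between replicates may be partly technical. Titles of the second set of libraries call them replicate 2, whereas the design text of the series still states that it held no replicates, and every n of 2 below rests on the titles.

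Antigen taken up by a DC is cut by cathepsins in acidic endosomes, and the same enzymes degrade the invariant chain Cd74 that occupies the groove of MHC class II molecules until peptide can be loaded. Most cathepsins are cysteine peptidases made as inactive proenzymes, Ctsd is an aspartic peptidase and Ctsa a serine carboxypeptidase. Cystatin C binds the active-site cleft of the cysteine enzymes with a wedge formed partly by a conserved loop, and does not inhibit Ctsa or Ctsd.

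The sequences below show the sites on which these activities rest, for the members whose values the results turn on. Each is read 5′ to 3′ on the coding strand from RefSeq transcripts of GRCm38.p6 (the assembly of mm10). Capitals mark the codon of the catalytic cysteine in Ctss (residue 148, chr3:95545348-95545350), Ctsl (residue 138, chr13:64367075-64367077) and Ctsc (residue 257, chr7:88308027-88308029), the codon of a catalytic aspartate in Ctsd (residue 97, chr7:142383479-142383481), and the 5 codons of the conserved loop of cystatin C (from residue 75, across an exon boundary, on chromosome 2).
Ctss: tcttgtggtgccTGCtgggctttcagt
Ctsl: cagtgcgggtctTGTtgggcgtttagc
Ctsc: tcttgtggaagcTGCtactcatttgcc
Ctsd: acagtcgtctttGATactggctcctct
Cst3: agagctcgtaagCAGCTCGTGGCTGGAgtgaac
The Ctsc codon bears on how its footprints were scaled. In replicate 2, the Ctsc values came out as whole reads on the lengths of the short transcript NM_001311790.1, so that they are inferred to stand on it. Its coding region of 411 bases does not hold this site, whereas the long transcript NM_009982.5 codes for 462 residues in 1386 bases and does. Values given below on long or longest transcripts assume that the reads were counted over the whole of them, which was not tested.

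In the input, the members covered a wide range and most of them were among the most abundant mRNAs of maDC. RPKM divides reads by gene length and by library size, which allows genes to be ordered by level within a table. Averaged over the 4 input libraries, the order from high to low was Cst3, Ctsd, Ctss, Ctsz, Ctsb, Ctsh, Ctsc, Ctsa, Ctsl and Ctsk, with geometric means from 3308 RPKM for Cst3 to 8.05 RPKM for Ctsk. The ranges of neighbours overlapped between Ctsd and Ctss, Ctsz and Ctsb, Ctsh and Ctsc, and Ctsc and Ctsa, so these pairs had no settled order. Cst3, Ctsd and Ctss lay at or above percentile 99.8 of all tested genes in every input library, while Ctsk, best known as the collagenase of osteoclasts, lay between percentiles 21.3 and 50.9. Of the 10 members, Ctsh was the most even across input libraries (SD 0.05 on the log2 scale, n = 4 libraries), and Ctsk (SD 0.68) and Ctsc (SD 0.53, or 0.94 with replicate 2 on its long transcript) were the least even.

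In RPF, Ctss stood first with a geometric mean of 6105 RPKM and Cst3 second with 5855 RPKM, and their ranges overlapped. Ctsk was again last (15.4 RPKM), and its range did not reach that of Ctsl, the next above it. The spread between libraries was wider than in the input except for Ctsk, Ctsz and Cst3. Their SD on the log2 scale was 0.39, 0.28 and 0.18 in RPF against 0.68, 0.39 and 0.19 in input. Ctsc ranged 17.7-fold as deposited, from 142 to 2516 RPKM. With replicate 2 on the long transcript it would range 5.24-fold, up to 746 RPKM, less than Ctsl (6.06-fold) and Ctss (5.77-fold). Cst3 ranged 1.28-fold. On the long transcripts Ctsa, Ctsh and Ctsc were nearly level, with geometric means of 371, 368 and 362 RPKM. RPF ranges of the replicates overlapped for Ctsa, Ctsd, Ctsz and Cst3 and lay apart for the other members. The replicates came in separate tables, so differences of KO from WT were taken only within a replicate. Statements on whether the groups overlapped set the values of both replicates side by side and are descriptive only.

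**Figure D1:**
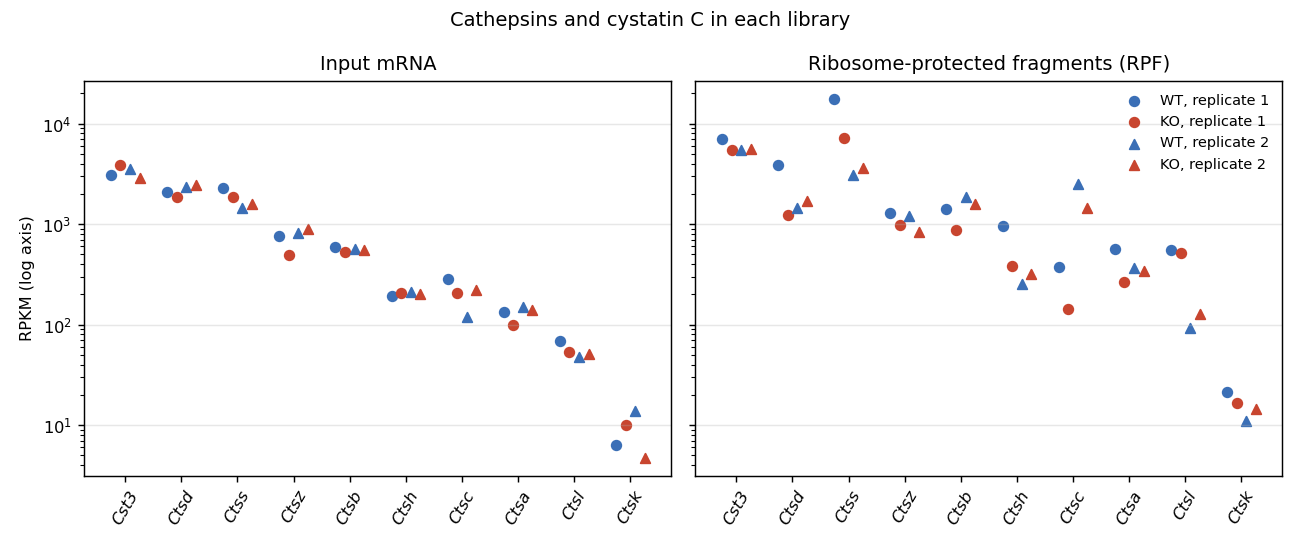
RPKM (log axis) of each member in the 4 input libraries (left) and the 4 RPF libraries (right); blue is WT, red is KO, circles are replicate 1 and triangles replicate 2. Input values of a gene lie close together except for Ctsc and Ctsk, whereas RPF values of Ctsl (92.1 to 557 RPKM) and Ctss (3065 to 17617 RPKM) part by replicate. Ctsc is plotted as deposited (142 to 2516 RPKM), and on its long transcript the replicate 2 values would be 746 and 429 RPKM.

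No member was called as different between KO and WT in input, RPF or translation efficiency (TE, RPF over input of the same lysate). All tests of KO against WT used limma on log2(RPKM + 0.5) with the replicate as a block and Benjamini-Hochberg adjustment over all tested genes, and a gene was called at an adjusted p under 0.05. Among members the smallest adjusted p was 0.865 (Ctsc, TE). Over all genes, limma called 0 in input (0.0%), 25 in RPF (0.242%) and 17 in TE (0.165%). At an unadjusted p under 0.05, input had 120 genes higher and 219 lower in KO, and no other setting of that fit called any gene. With 1 residual degree of freedom per gene, limma draws most of a gene's error from all genes at like levels. Among the members the SE thus ran only from 0.60 (Ctsl) to 0.68 (Ctss) in RPF. In TE it ran only from 0.64 (Ctsl) to 0.66 (Ctsd), however far the replicates lay apart. A call in RPF or TE therefore turned mostly on the size of the mean difference. Each SE given below for KO against WT is this limma SE, not a gene's own spread.

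As deposited, RPF of all 10 members was lower in KO than in WT in replicate 1, by log2 values from -0.12 (Ctsl) to -1.65 (Ctsd). This stood against a general shift, as 69.0% of all tested genes were lower in the same comparison and the median gene was at -0.46. In replicate 2, where the median gene was at -0.03, 4 of the 10 members were lower. Values of KO over WT are therefore also given relative to the median gene of the replicate. On that scale 6 members lay below and 4 above the median gene in RPF of replicate 1, and 4 lay below and 6 above in replicate 2. The median of the 10 members was -0.43 in replicate 1 and 0.15 in replicate 2.

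Relative to the median gene, RPF was lower in both replicates for Ctsa, Ctsb and Ctsc, that is 3 of 10 members against 24.4% of all tested genes, and higher in both for Ctsk, Ctsl and Cst3, again 3 of 10 against 24.4%. In TE, Ctsb and Ctsc were lower in both (2 of 10, all genes 24.7%) and Ctsl was higher in both (1 of 10, all genes 24.7%). In input, Ctsa and Ctsb were lower in both (2 of 10, all genes 23.0%), and no member was higher in both (all genes 23.1%). The other members had opposite signs in the replicates, which were 8 of 10 members in input, 4 in RPF and 7 in TE. The shares of members with the same sign in both replicates lay below those of all genes in input and TE, and somewhat above them in RPF. Opposite signs were accordingly more frequent among the members than among all genes in input and TE, and less frequent in RPF. With so few members this was not tested.

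**Figure D2:**
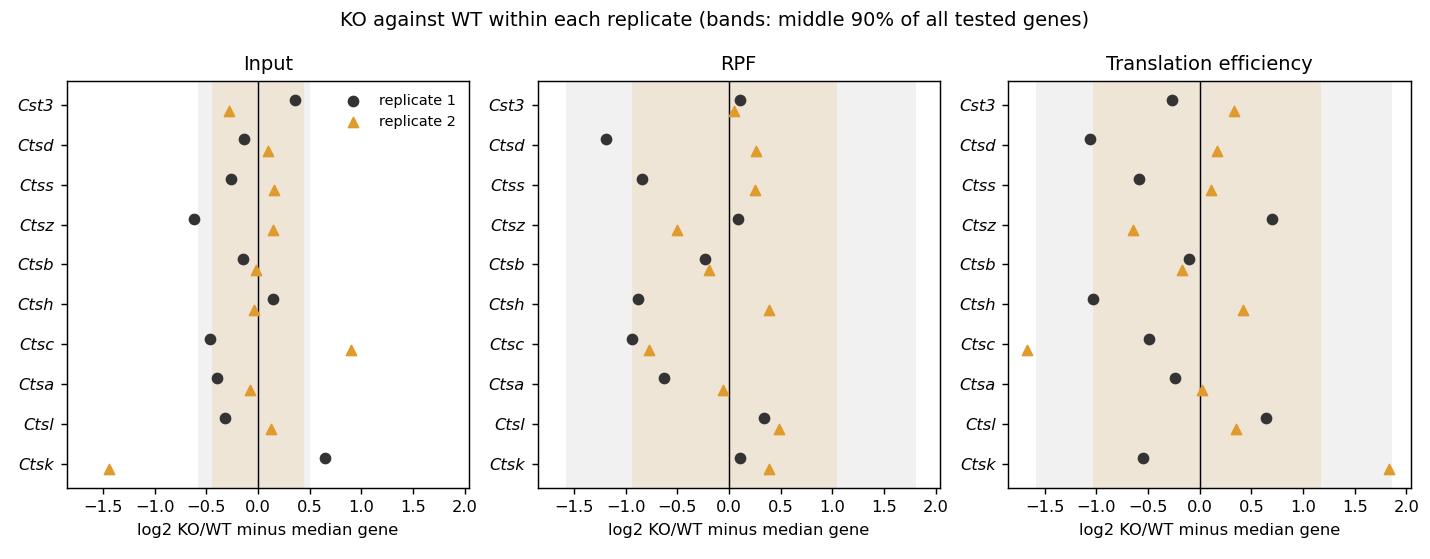
log2 KO/WT of each member minus that of the median gene, in input, RPF and TE; circles are replicate 1, triangles are replicate 2, and the bands hold the middle 90% of all tested genes in replicate 1 (grey) and replicate 2 (orange). In RPF all 10 members lie inside the band of their replicate, and Ctsc is low in both replicates (-0.94 and -0.77).

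Ctsc, the dipeptidyl peptidase that trims dipeptides from protein ends and activates granule serine proteases, had the largest mean difference in RPF and TE among the members. Its RPF was 376 RPKM for WT against 142 for KO (replicate 1), then 2516 against 1446 RPKM (replicate 2). KO was the lower library of each pair, although the groups overlapped because the replicates were so far apart. The log2 KO/WT of RPF was -1.40 and -0.80, which gave a mean of -1.10 ± 0.61 (SE, n = 2 per group, limma adjusted p = 0.933). Relative to the median gene Ctsc RPF was at least 1.5-fold lower in both replicates, as for 327 of all tested genes (3.17%), and it was the only member to be so.

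Input of Ctsc did not keep one direction. It was 288 RPKM for WT against 204 for KO (replicate 1), then 120 against 222 RPKM (replicate 2), so KO was lower in the first pair and higher in the second. The mean log2 KO/WT of input was 0.20 ± 0.32 (SE, n = 2 per group), which is smaller than its limma SE. TE of Ctsc was accordingly lower in KO in both replicates (log2 KO/WT -0.90 and -1.69, mean -1.30 ± 0.64, limma adjusted p = 0.865). No member was at least 1.5-fold lower in TE in both replicates relative to the median gene (all genes 3.92%), since Ctsc stood at -0.49 in replicate 1.

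From the whole reads recovered in replicate 2, Ctsc had 4780 input reads in WT and 7884 in KO, while its RPF reads numbered 5000 and 3135. The 95% counting interval of its log2 KO/WT was -0.86 to -0.73 in RPF and -1.78 to -1.61 in TE, so in this pair of lysates the difference is beyond counting error. Such intervals compare 1 library with 1 other, hold no spread between animals or cultures, and treat reads as separate molecules although the libraries carried no molecular identifiers. The 3 tested genes whose changes were most like those of Ctsc over the 4 values of log2 KO/WT (input and RPF, replicates 1 and 2) were Ece1, Ms4a6d and Glrx, at Euclidean distances of 0.23, 0.31 and 0.32. Ece1, which encodes an endothelin-converting metalloprotease, had values of -0.50 and 0.87 in input and -1.23 and -0.95 in RPF.

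Ctss is the enzyme that completes invariant chain degradation in DC. Input of Ctss was 2306 RPKM for WT against 1878 for KO (replicate 1), then 1450 against 1599 RPKM (replicate 2). RPF was 17617 RPKM for WT against 7166 for KO (replicate 1), then 3065 against 3591 RPKM (replicate 2). Thus 1 library, WT RPF of replicate 1, stood far above the other 3, and the groups overlapped in both measures. The log2 KO/WT of RPF was -1.30 in replicate 1 and 0.23 in replicate 2 (mean -0.53 ± 0.68, SE, limma adjusted p = 0.999), and TE turned the same way.

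Ctsl, which degrades the invariant chain in cortical thymic epithelium and takes part in general lysosomal proteolysis, was the only member whose TE was higher in KO in both replicates. Input was 68.6 RPKM for WT against 53.8 for KO (replicate 1), then 47.3 against 51.3 RPKM (replicate 2). RPF was 557 RPKM for WT against 513 for KO (replicate 1), then 92.1 against 126 RPKM (replicate 2). Genotypes lay close together within each replicate, and the replicates lay several-fold apart in RPF. The log2 KO/WT of TE was 0.23 and 0.34 (mean 0.28 ± 0.64, SE). That mean is less than its limma SE, which does not measure how close the replicates lay.

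Ctsb, an endopeptidase that also removes dipeptides from carboxyl ends, had one of the most even mRNA levels. Input was 593 RPKM for WT against 524 for KO (replicate 1), then 567 against 555 RPKM (replicate 2). Both KO values were below both WT values, as for 4.86% of all tested genes, though by little (log2 KO/WT -0.18 and -0.03). RPF was 1408 RPKM for WT against 871 for KO (replicate 1), then 1856 against 1589 RPKM (replicate 2). KO was lower within each pair, with overlap between the groups. Its TE was lower in KO (log2 KO/WT -0.52 and -0.19, mean -0.35 ± 0.64, SE), and stood at only -0.10 and -0.17 relative to the median gene.

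Ctsh, chiefly an aminopeptidase, had input of 194 RPKM for WT against 209 for KO (replicate 1), then 210 against 204 RPKM (replicate 2). Those 4 libraries were almost level. RPF was 958 RPKM for WT against 379 for KO (replicate 1), then 251 against 323 RPKM (replicate 2), so the direction turned between replicates and WT held both the highest and the lowest value. The log2 KO/WT of TE was -1.45 and 0.40 (mean -0.52 ± 0.64, SE). In replicate 2 its values are inferred, in the same way as for Ctsc, to stand on the shorter of its 2 curated coding transcripts (coding length 789 bases against 999), which moves the level but not KO over WT.

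Ctsz, a carboxypeptidase also known as cathepsin X, had input of 769 RPKM for WT against 488 for KO (replicate 1), then 822 against 902 RPKM (replicate 2). RPF was 1286 RPKM for WT against 992 for KO (replicate 1), then 1201 against 832 RPKM (replicate 2). Both KO libraries were below both WT libraries in RPF for Ctsz and for Ctsa, against 11.9% of all genes in that direction, and no member had both KO libraries above (all genes 3.64%). The same held in input, where no member had both KO libraries above both WT libraries (all genes 5.39%). For Ctsz the log2 KO/WT of RPF was -0.37 and -0.53 (mean -0.45 ± 0.62, SE, limma adjusted p = 0.999), whereas TE had opposite signs (0.28 and -0.66).

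Ctsk was the one member at a low level. Input was 6.38 RPKM for WT against 10.0 for KO (replicate 1), then 13.8 against 4.74 RPKM (replicate 2). RPF was 21.3 RPKM for WT against 16.6 for KO (replicate 1), then 11.1 against 14.4 RPKM (replicate 2). Both measures turned between replicates, and the groups overlapped. Replicate 2 held 217 Ctsk input reads in WT and 66 in KO, and only 53 and 75 RPF reads, whose counting interval of log2 KO/WT in RPF ran from -0.15 to 0.91.

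Among the members that cystatin C does not inhibit, Ctsd, the main aspartic protease of lysosomes, had input of 2108 RPKM for WT against 1880 for KO (replicate 1), then 2319 against 2459 RPKM (replicate 2). RPF was 3864 RPKM for WT against 1234 for KO (replicate 1), then 1455 against 1710 RPKM (replicate 2). WT RPF of replicate 1 was again the highest of the 4, and the order of genotypes turned in replicate 2. The log2 KO/WT of RPF was -1.65 and 0.23 (mean -0.71 ± 0.63, SE, limma adjusted p = 0.999), and that of TE was -1.48 and 0.15.

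Ctsa, the serine carboxypeptidase that also protects the lysosomal enzymes beta-galactosidase and neuraminidase, had input of 133 RPKM for WT against 99.0 for KO (replicate 1), then 150 against 141 RPKM (replicate 2). RPF was 569 RPKM for WT against 268 for KO (replicate 1), then 363 against 343 RPKM (replicate 2). KO was the lower library in each pair and the RPF groups did not overlap. The log2 KO/WT of RPF was -1.09 and -0.08 (mean -0.58 ± 0.60, SE, limma adjusted p = 0.999), so nearly all of it lay in replicate 1.

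When WT or KO RPF of replicate 2 was left out, the RPF difference tested was that of replicate 1 alone. No RPF spread was left in the error, which then came from the input libraries only, so calls from these fits are not given. In replicate 1 the log2 KO/WT of RPF was -1.65 for Ctsd, -1.40 for Ctsc, -1.34 for Ctsh, -1.30 for Ctss and -1.09 for Ctsa. Of these, only Ctsc was also clearly lower in KO in replicate 2 (-0.80). There Ctsd, Ctsh and Ctss were higher in KO and Ctsa was at -0.08. The part of the general shift of replicate 1 in these values was not tested.

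Cst3 was the most abundant member in input and the most even of the 10 in RPF (SD 0.18 on the log2 scale, n = 4 libraries). Input was 3075 RPKM for WT against 3863 for KO (replicate 1), then 3514 against 2868 RPKM (replicate 2). RPF was 7023 RPKM for WT against 5491 for KO (replicate 1), then 5483 against 5557 RPKM (replicate 2). Neither measure kept a direction, and 3 of the 4 RPF libraries lay close to each other. The mean log2 KO/WT was 0.02 ± 0.38 (SE) in input and -0.17 ± 0.67 (SE) in RPF. Its RPF lay near the median gene in both replicates (0.10 and 0.05 above it).

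Set against the 7 cysteine cathepsins, Cst3 mRNA was about as abundant as all of them together. The ratio of Cst3 input to their summed input RPKM was 0.73 in WT and 1.15 in KO in replicate 1, and 1.09 in WT and 0.81 in KO in replicate 2, so it differed between genotypes in opposite directions. In RPF the ratio was 0.32 in WT and 0.54 in KO in replicate 1, and 0.61 in WT and 0.70 in KO in replicate 2. Here KO was higher in both pairs, by 0.79 and 0.20 on the log2 scale, and the groups overlapped. With replicate 2 on the longest transcripts, its ratios were 0.77 and 0.81 and its difference was 0.088, well under the 0.20 of the deposited values. With 2 samples per group no exact permutation test of a single ratio can pass the threshold, and none was run. Most of the RPF sum was Ctss in replicate 1.

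**Figure D3:**
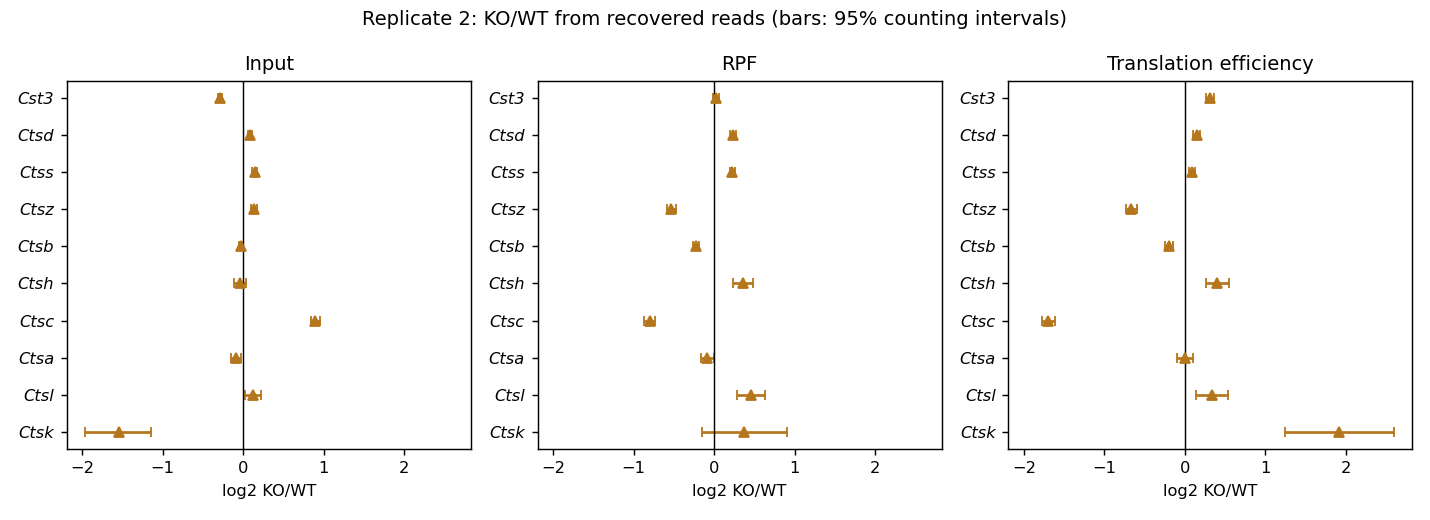
log2 KO/WT of each member in replicate 2 with 95% counting intervals (bars) from the recovered reads, in input, RPF and TE. The intervals are narrow for all members except Ctsk, and TE of Ctsc (-1.78 to -1.61) lies farthest below 0.

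The members also varied in translation efficiency among themselves, in both genotypes. TE of a gene was set against the median gene of the same lysate (log2 scale). Ctsa, Ctsh, Ctsl and Ctss carried more footprints per mRNA than the median gene in all 4 lysates (4 of 10 members, all genes 22.1%), and Ctsd carried fewer in all 4 (1 of 10, all genes 22.8%). The highest mean was that of Ctsl, at 1.62 ± 0.26 (SE, n = 4 lysates), with 1.80 and 0.94 in WT and 2.47 and 1.24 in KO (replicates 1 and 2). Ctss followed at 1.27 ± 0.26, with 1.72 and 1.07 in WT and 1.16 and 1.12 in KO. Ctsd had the lowest mean, -0.74 ± 0.29, with -0.34 and -0.68 in WT and -1.38 and -0.57 in KO. Ctsa had 0.88 and 1.26 in WT and 0.66 and 1.23 in KO, and Ctsh 1.09 and 0.25 in WT and 0.09 and 0.61 in KO. On the longer Ctsh transcript, replicate 2 stood at 0.0042 in WT and 0.37 in KO. Ctsh was then barely above the median gene in WT of replicate 2 and KO of replicate 1. Ctsz (mean 0.04), Cst3 (0.31) and Ctsk (0.38) lay on both sides of the median gene. Ctsd thus carried the fewest footprints per mRNA of the 10 on average.

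In limma with the replicate as a block, TE passed above the median gene for Ctsa, Ctsb, Ctsc, Ctsl and Ctss (5 of 10 members, all genes 25.7%) and below it for none (all genes 24.6%). Adjusted p was 0.00747 for Ctsa, 0.0249 for Ctsb, 0.00345 for Ctsc, 0.00047 for Ctsl and 0.00218 for Ctss. That fit takes the difference between the 2 tables out of its error, so its SE holds no spread between tables. Without the replicate block 0 genes passed in limma (1328 above and 1526 below at an unadjusted p under 0.05), and the adjusted p of these 5 members ran from 0.145 to 0.421. Ctsc shows the limit most plainly, since its TE was -0.83 and -1.29 in replicate 1 (WT and KO) and 4.38 and 2.65 in replicate 2, opposite signs that average to 1.23. On the length of the long Ctsc transcript, the values of replicate 2 were 3.51 and 1.78 and the mean was 0.79, so the replicates stayed apart with opposite signs.

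**Figure D4:**
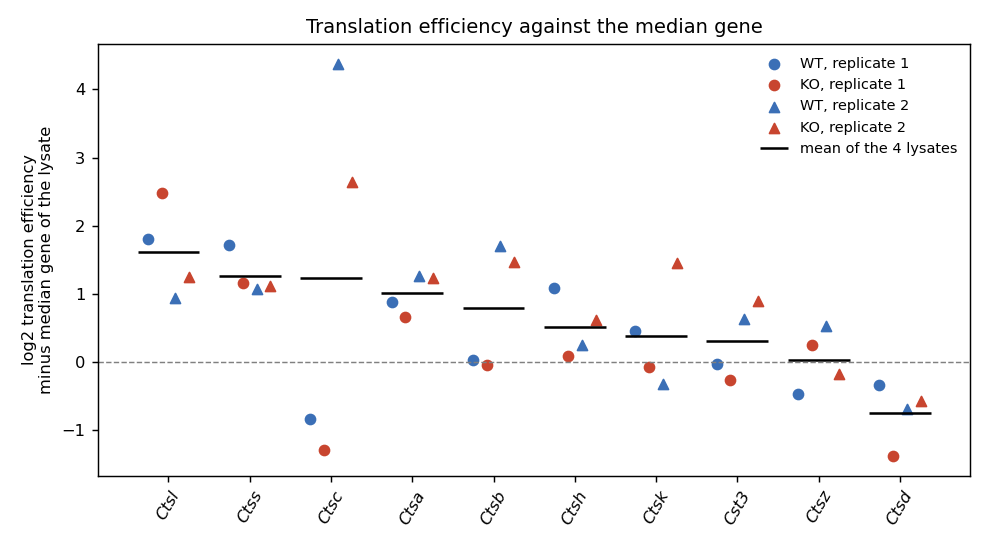
log2 TE of each member minus that of the median gene in the same lysate, for 4 lysates (blue WT, red KO, circles replicate 1, triangles replicate 2), with the mean of the 4 as a black line. Ctsl, Ctss, Ctsa and Ctsh are above 0 in all 4 lysates, Ctsd is below 0 in all 4, and Ctsc and Ctsb part by replicate. Ctsh is plotted as deposited, and on its longer transcript WT of replicate 2 would be at 0.0042.

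Other genes of the pathway gave no call either. Among 5 other cathepsins (Ctse, Ctsf, Ctsg, Ctso and Ctsw) none passed in input, RPF or TE. Ctsg, a serine protease of myeloid granules, had a log2 KO/WT of input of -1.71 and -1.28 relative to the median gene (limma adjusted p = 0.597), and Ctsw, a cysteine cathepsin of cytotoxic lymphocytes, had RPF higher by 2.62 and 0.98 (limma adjusted p = 0.598). Ctse, an aspartic protease, had RPF higher by 0.13 and 3.77 relative to the median gene. None of 7 tested cystatins passed, and their median RPF was -0.70 in replicate 1 and 1.10 in replicate 2. Stfa2 and Stfa2l1, members of a stefin family of near-identical copies whose reads could be split or shared, had RPF higher by 0.11 and 2.39 and by 0.01 and 1.06.

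Of 9 partners of class II antigen processing, 8 were tested and none passed. H2-DMa, a subunit of the chaperone that exchanges CLIP for peptide, had RPF at -1.31 and -0.20 and H2-DMb1 at -0.97 and -0.13 (log2 KO/WT relative to the median gene). Sppl2a, the protease that clears the membrane stub of the invariant chain, had TE at -0.66 and -0.35. The 38 lysosomal hydrolases had no call. Relative to the median gene, 12 were lower and 5 higher in both replicates in input (all genes 23.0% and 23.1%), 7 and 9 in RPF (24.4% each) and 6 and 12 in TE (24.7% each). Their median RPF was -0.28 and 0.23 in the replicates, the same signs as the members. Among 12 sorting receptors and regulators, RPF of Mitf stood at -2.74 and -0.54 (limma adjusted p = 0.325) and that of Tfeb at 1.24 and 0.42 (limma adjusted p = 0.999). Both encode transcription factors of lysosomal genes.

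Such factors bind E-box elements, and the CLEAR element of lysosomal promoters contains the letters CACGTG. In RefSeq promoter windows of GRCm38.p6 (from 250 bases before to 50 after a start site, both strands), 8 of 10 members had an entry. They had 9 windows, and 3 of the 9 (Ctsa, Ctsd and Ctsl) held CACGTG, against 7.15% of 32851 windows. The longer form TCACGTGA, which contains CACGTG and like it reads the same on both strands, was in Ctsa and Ctsd (2 of 9 windows, against 0.974%). The stretches of these promoters are shown with CACGTG in capitals, from chr2:164833749-164833778 and chr2:164833766-164833795 (plus strand) and chr7:142387908-142387937 (minus strand). The first pair overlap.
Ctsa, first: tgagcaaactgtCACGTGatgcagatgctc
Ctsa, second: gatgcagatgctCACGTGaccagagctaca
Ctsd: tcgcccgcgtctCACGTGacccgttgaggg
A match is only a run of letters, and binding was not measured here.

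Mettl3 acts on mRNAs at a motif whose most frequent form is GGACT. Each of the 10 members held at least 1 GGACT in its longest curated coding transcript, with a median of 1.55 per kilobase against 1.06 over 10294 tested genes with such a transcript, 91.7% of which held one. Ctss was densest with 4 in 1360 bases (2.94 per kilobase), followed by Ctsk (2.53) and Ctsl (2.28), and Ctsb was sparsest (0.422). Ctsc held 6 in 7466 bases (0.804 per kilobase). No m6A was measured in these libraries.

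The labels could be checked only in part. Mettl3 input was 6.97 RPKM for WT against 6.27 for KO (replicate 1), then 10.1 against 11.9 RPKM (replicate 2), and so did not separate the genotypes at the level of the whole gene. Mettl3 RPF was 34.0 RPKM for WT against 15.3 for KO (replicate 1), then 9.63 against 5.88 RPKM (replicate 2), lower in the libraries labelled KO. A gene-level row does not resolve the deleted exons, and WT and KO here mean the labels throughout. Of the DC markers, 12 of 13 (all but Cd209a) were in both tables and none was at 0, with Itgax (CD11c) between 16.2 and 25.8 RPKM in input. Itgax RPF was 228 RPKM for WT against 48.8 for KO (replicate 1), then 58.9 against 33.2 RPKM (replicate 2), which is -1.75 and -0.79 relative to the median gene (limma adjusted p = 0.564). Its TE stood at -2.15 and -0.49, lower in both replicates, as was that of Ctsc. Irf8 went the other way, with RPF at 2.20 and 0.26 and TE at 2.18 and 0.11 relative to the median gene. Of 10 tested DC markers, 2 were lower and 3 higher in both replicates in RPF, and 4 were lower and 2 higher in TE. In input 0 were lower and 4 higher. Over all genes the shares lower and higher in both were 24.4% each in RPF, 24.7% each in TE, and 23.0% and 23.1% in input.

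Cathepsins are expressed by other myeloid cells too, and markers of these were present. Macrophage markers (16 of 18 in both tables, all but Cd163 and Vsig4, none at 0) summed to 12444 and 8712 RPKM of input in WT and KO of replicate 1 and 10955 and 14301 in replicate 2, above the DC markers (4294 and 5564, then 6395 and 6649). Neutrophil markers (14 of 14, none at 0) summed to 5458 and 3427, then 6010 and 6430. Macrophage marker input thus moved down in KO in replicate 1 and up in replicate 2, with medians of -0.47 and 0.43 relative to the median gene. Input of Ctsc, Ctsd, Ctsl, Ctss and Ctsz had the same signs. Ctsh (0.14 and -0.04), Ctsk (0.65 and -1.44) and Cst3 (0.36 and -0.28) had the reverse signs, and Ctsa and Ctsb were lower in both. The share of all genes with either pattern was not counted. In RPF the macrophage markers had medians of -0.81 and 0.01, where 8 markers were below the median gene in both replicates and 5 were above it in both, and in TE 9 were below and 4 above. Of 14 neutrophil markers, 8 were lower and 0 higher in both replicates in input. In RPF 1 was lower and 11 higher, and in TE 0 were lower and 9 higher. Of all genes, 23.0% were lower and 23.1% higher in both replicates in input. In RPF each share was 24.4% and in TE 24.7%. None of these markers passed in limma. The part of cell composition in these values was not tested, and in bulk lysates more cells of a type and more RNA per cell cannot be told apart. Mast cell and basophil markers summed to between 19.6 and 70.3 RPKM, and T and NK cell markers to between 10.3 and 25.1 RPKM.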

How the data were processed

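The authors deposited RPKM values in 1 table per replicate, with input and RPF columns for WT and KO. Build mm10 and the tools TopHat2 2.0.14, Cuffnorm and bcl2fastq come from the submitters' processing notes. For the gene annotation and read filters, this is not given in the sources used here. Each table also held log2 translation efficiencies of the authors (4 columns), which were not used. Columns of the second table repeat the names of the first and were taken as replicate 2 from the table's name. Of 20605 and 11801 rows, 27 and 19 held a date instead of a symbol and were left out. Older symbols were updated through RefSeq (GRCm38.p6), which left 11743 genes in both tables (11457 as written). All genes of the second table are above 0 in each of its columns.

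Tested were the 10321 genes averaging 1 RPKM or more both in input and in RPF. limma 3.58.1 (R 4.3.3) was run on log2(RPKM + 0.5), a scale that understates changes of low genes, with genotype and replicate as terms and 1 residual degree of freedom, two-sided, adjusted by Benjamini-Hochberg, threshold 0.05. TE was log2 RPF minus log2 input, so its change is a genotype-by-library-kind interaction. Same-numbered libraries deviated together from their group means (correlation across genes 0.78 in input, 0.85 in RPF and 0.83 in TE); the number also marks the table, and genes are not independent replicates. The fits were run on simulated data with less noise than these data and large changes. That run checks the code and not the power to find changes here.

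Depth was sought in the steps of the values. In replicate 2, RPKM were whole reads over RefSeq lengths (tolerance 0.01 read) for 81.6% and 81.7% of genes in input and 98.9% and 99.0% in RPF (WT and KO), against about 2% with the length of another gene. Implied totals were 9920474 and 8794578 reads in input and 4835140 and 5276406 in RPF. No steps were found in replicate 1, whose depth is unknown. In RPF of replicate 2, 241 genes stood on a length of 1 base, and none was a member. Their part in the SE of other genes at like levels was checked by leaving them out. Intervals are exact and cover counting error only.

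The members, gene lists and markers were chosen with earlier results of these data known. All members are named; of each list, the genes passing in the measure or else the 2 with the largest mean change of one sign. Alternatives were pseudocount, filter, scaling, block, a joint fit and each library left out. Longest transcript lengths for replicate 2 and leaving out genes on 1 base were added after seeing the data.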

Additional observations from a re-analysis of the deposited data

How the results depend on the processing

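No gene was called in input under any setting. In RPF, 25 genes became 0 with libraries centred on the median, with quantile normalization, with no replicate block and with all 8 libraries in 1 fit, and leaving out single libraries gave 27 to 4910. In TE, 17 became 0 under the same 4 settings and 29 with a pseudocount of 0.1, and leaving out single libraries gave 1 to 3631. Genes above or below the median gene in TE went from 5188 to 0 with no replicate block and to 0 without any 1 lysate (range 0 to 0), fits that also drop the block. No member was called in KO against WT under the other alternatives run on all libraries. Leaving out 1 library leaves the other replicate's difference for KO against WT in the measure it belongs to, so signs turned wherever the replicates disagreed. For input, the range over libraries left out (log2) was -0.49 to 0.89 for Ctsc, -0.16 to 0.085 for Ctsd, -0.044 to 0.11 for Ctsh, -1.45 to 0.61 for Ctsk, -0.35 to 0.12 for Ctsl, -0.30 to 0.14 for Ctss, -0.65 to 0.13 for Ctsz and -0.29 to 0.33 for Cst3. For RPF, the range over libraries left out (log2) was -1.65 to 0.23 for Ctsd, -1.34 to 0.36 for Ctsh, -0.35 to 0.36 for Ctsk, -0.12 to 0.45 for Ctsl, -1.30 to 0.23 for Ctss and -0.36 to 0.019 for Cst3. For TE, the range over libraries left out (log2) was -0.83 to 0.18 for Ctsa, -1.61 to 0.27 for Ctsd, -1.37 to 0.33 for Ctsh, -0.61 to 1.45 for Ctsk, -0.0039 to 0.57 for Ctsl, -1.22 to 0.31 for Ctss, -0.59 to 0.20 for Ctsz and -0.50 to 0.12 for Cst3. For TE against the median gene, the range over libraries left out (log2) was -0.074 to 2.53 for Ctsc, -0.00081 to 0.76 for Ctsk and -0.21 to 0.29 for Ctsz. With libraries centred on the median, Cst3 turned to 0.069 in RPF and 0.020 in TE and Ctsz to 0.015 in TE, and with quantile normalization Cst3 turned to -0.029 in input and Ctsz to 0.18 in TE, all far below their SE. TE of Ctsd passed below the median gene with a pseudocount of 1, with no filter, with a filter at 5 RPKM and on the longest transcripts (adjusted p from 0.0312 to 0.0476), and Cst3 passed above it with quantile normalization (0.83, adjusted p = 0.0323). The cause was not tested. Medians of the gene lists stayed within 1 SD of the replicates in 589 of 656 repeats with another setting. This limit cannot show that the medians are stable. Leaving out a library returns the value of 1 replicate, and several settings cannot move a list median. The macrophage marker input median of -0.055 counted as unchanged at 0.43 and -0.47, without WT input of replicate 1 and of replicate 2. Where depth is known, it limits Ctsk alone among the members.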
